A study of Mus musculus with 92 samples.

Results

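The comparison described here sets single blastomeres of mouse embryos that had received a let-7e-5p mimic, a synthetic copy of the microRNA, as zygotes (group Let7e) against blastomeres of embryos that had received a negative control (group NC). The cells were chosen by their labelled treatment alone, and they are 42 of the 82 cells with a column in the count table, 20 of them Let7e and 22 NC. All 7886 genes of the table were described. The embryos were wild type and of the strain C57BL/6N, were injected as zygotes after in vitro fertilisation (IVF, as the sample titles have it), and were taken apart at the 8-cell stage. Each cell was sequenced by Smart-seq2, which reads full-length cDNA of 1 cell and carries no molecular identifiers. The cells carry 4 mouse id labels in Let7e (6, 8, 2 and 4 cells) and 3 in NC (8, 8 and 6 cells), and reads were summed within each mouse id to give the replicates of the tests. What a mouse id stands for (an embryo or a parent animal) is left unsaid by the labels, and 2 of the 7 mouse ids hold cells both with and without Y-linked reads, which cells of 1 embryo would not. The p-values below measure the spread between mouse ids, which may be technical. For edgeR that spread was estimated jointly over all 4 groups of the study. The 2 other injected groups, Let7d (let-7d, 3 mouse ids) and mi699a-5p (a microRNA named so in the labels, 4 mouse ids), share the strain, stage and handling. They enter the estimate of the spread and serve here as further reference levels. The dose of the injected material and the sequence of the negative control are not given in the sources used here. The injected embryos were not compared with uninjected ones here.

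MicroRNAs of the let-7 family are short RNAs that guide Argonaute proteins to messenger RNAs, mainly to sites in the 3′ UTR that pair with the seed, the bases near the 5′ end of the microRNA. Bound transcripts are deadenylated and degraded or are translated less. The family is known for its rise during differentiation, for the mutual repression with the RNA-binding proteins LIN28A and LIN28B that block its maturation in stem cells and early embryos, and for targets such as Hmga2, Trim71 and the Igf2bp genes. The 2 let-7 members injected in the study are shown because they share a seed, which decides the sites searched below. The capitals mark the seed, bases 2 to 8.
mmu-let-7e-5p: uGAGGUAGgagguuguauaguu
mmu-let-7d-5p: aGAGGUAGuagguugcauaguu
Both sequences come from RefSeq on GRCm38.p6, where mature let-7e lies on chromosome 17 from 17830366 to 17830387 (plus strand) and let-7d on chromosome 13 from 48536078 to 48536099 (minus strand). They differ at 3 of 22 bases, at positions 1, 9 and 16 from the 5′ end, all outside the seed. Bases 2 to 8 of let-7e are shared by 11 mature mouse microRNA names in the same source.

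Hmga2 encodes a chromatin protein of embryonic and stem cells, and its sites are shown because it is the listed let-7 target on which the comparison below turns. The gene lies on chromosome 10 of GRCm38 from 120361275 to 120476469 (minus strand), and its 3′ UTR of 3014 bases holds 7 matches. They are 1 match of the 8mer kind (the complement of bases 2 to 8 followed by A), 3 of the 7mer-m8 kind (the complement of bases 2 to 8) and 3 of the 7mer-A1 kind (the complement of bases 2 to 7 followed by A). Each line gives 28 bases of the transcript strand as DNA letters, named by the position of the match in the 3′ UTR, with the match in capitals.
Hmga2 at 59, 8mer: cgccgacattcaatttCTACCTCAgcat
Hmga2 at 1143, 7mer-A1: aagaccgcagtaccactTACCTCAgatg
Hmga2 at 1296, 7mer-m8: atccccactcctcaataCTACCTCtgaa
Hmga2 at 1684, 7mer-A1: ataagtctccaagtttgTACCTCAaatg
Hmga2 at 1734, 7mer-m8: tcctgatttgcaaggaaCTACCTCcaca
Hmga2 at 2592, 7mer-m8: acaatcaaaacacactaCTACCTCttaa
Hmga2 at 2611, 7mer-A1: cctcttaagtcccagtaTACCTCAtttt
For contrast, the 3 matches of the 8mer kind of Igf2bp1 are given with them, since this target has 5 matches and did not lie lower in Let7e. Igf2bp1 lies on chromosome 11 from 95957163 to 96005940 (minus strand).
Igf2bp1 at 1716, 8mer: tgctgtgcgaagtaaaCTACCTCAaggt
Igf2bp1 at 4137, 8mer: ccagcagtgctattaaCTACCTCAgccc
Igf2bp1 at 4731, 8mer: agtataaatggatgaaCTACCTCAgtcc
The single matches of Tnrc6a and Cgn, described below, complete the set. Tnrc6a lies on chromosome 7 from 123123885 to 123195296 (plus strand) and Cgn on chromosome 3 from 94760069 to 94786492 (minus strand). The bases shown for Cgn lie from 94775882 to 94775909, away from the 3′ end of the gene at 94760069. They belong to the annotated transcript with the best match, and other Cgn transcripts may lack this match.
Tnrc6a at 1957, 7mer-A1: ctagtgttaacctctcaTACCTCAcaca
Cgn at 213, 8mer: ccctaaaagtaatcagCTACCTCAcagg

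The libraries were checked before the comparison. Summed reads per mouse id ranged from 6329464 to 24037593, with the lowest total in Let7e mouse id 3, which holds 2 cells. Among 861 pairs of the 42 cells the smallest chi-square statistic per gene was 37.7, so no pair of cells agreed within sampling noise. Of 16 genes chosen to mark 8-cell blastomeres 14 were measured, with summed levels of 8162 to 9082 CPM (read counts scaled to a common library total, the unit of level used throughout) in Let7e and 7571 to 9025 CPM in NC. Of 20 cumulus and granulosa cell genes 0 were in the table, which was filtered by the authors, while 2 of 17 sperm genes (Tsga8 and Odf2) and 1 of 20 blood, skin and stromal genes (Pecam1) were. Let7e mouse id 1 held 4 cells with Xist and no Y-linked reads beside 2 with Y-linked reads, and NC mouse id 2 held 4 of each kind, so in these 2 the spread between cells includes that between embryos. The cells of the other 5 mouse ids all carried Y-linked reads of at least 10 CPM. Reads per cell averaged 3004148 ± 113824 (SD, n = 4) in Let7e and 2526101 ± 266478 (SD, n = 3) in NC without overlap (two-sided exact permutation p = 0.0571, the smallest that 4 against 3 can give, adjusted p = 0.286 over 5 measures). Ribosomal RNA genes took 14.0%, 6.06%, 8.64% and 6.03% of reads in the Let7e mouse ids and 14.7%, 9.16% and 14.9% in NC (exact permutation p = 0.114). With every cell thinned to 1138550 reads, and with the ribosomal RNA genes left out, 0 genes passed the threshold of the comparison below, and the part of these 2 measures in single gene differences was not tested further. Each group has its own mouse ids, so the injected material and any handling that coincides with the group cannot be told apart.

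No gene passed the correction for 7886 tests between Let7e and NC. By edgeR's quasi-likelihood test with Benjamini-Hochberg adjustment the lowest adjusted p was 0.999, so 0 genes (0.0%) were called, and 0 were called by DESeq2, where the lowest adjusted p was 0.093, that of Cers6 and Htr5b. By limma-voom the lowest adjusted p was 0.951. In counts simulated at this design with 1 common dispersion, edgeR called 0 of 200 genes changed 2-fold. A count of 0 thus does not show equal levels. At an unadjusted edgeR p under 0.05 stood 317 genes (4.02%), 184 higher in Let7e (2.33%) and 133 lower (1.69%), where uniform p-values would give 394. The CPM values of all 4 Let7e mouse ids lay apart from those of all 3 NC mouse ids in 443 genes (5.62%), 219 higher (2.78%) and 224 lower (2.84%). The median log2 fold change (Let7e minus NC) was 0.02, with 48.1% of genes below 0 and the 5th and 95th percentiles at -0.86 and 0.79. The median standard error of a log2 fold change was 0.26 in the 2067 genes with a mean of at least 100 CPM, 0.43 over all genes and 1.0 in the 700 genes under 10 CPM. Most large values belonged to genes of low level, since 498 of the 502 genes with an absolute log2 fold change over 1 had a mean under 100 CPM. All p-values of single genes given below are unadjusted edgeR values of genes that did not pass the correction, and the error after each ± of a log2 fold change is its standard error.

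**Figure D1:**
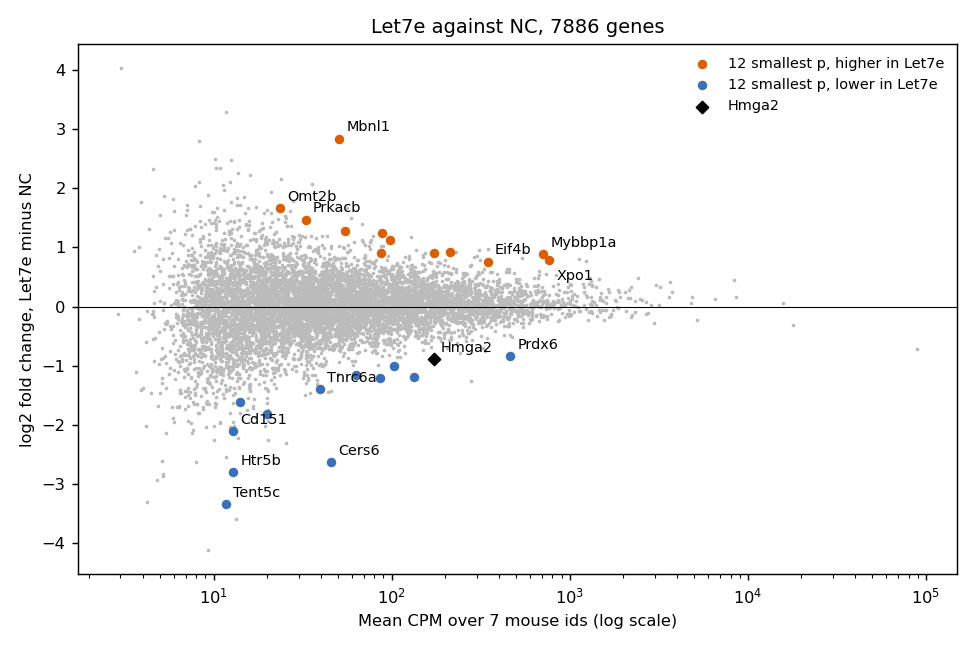
Log2 fold change (Let7e minus NC) of each of 7886 genes (grey points) against its mean CPM over the 7 mouse ids on a log axis, with the 12 genes of smallest p in each direction in orange and blue and Hmga2 as a black diamond. Grey points spread widely at the left, where the median standard error is 1.0 under 10 CPM, and narrow to the right, so that Xpo1 and Prdx6 stand out at less than 1 log2 unit.

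Among let-7 targets Hmga2 was the one with an unadjusted p under 0.05. Its level was 156, 181, 90.3 and 78.1 CPM in Let7e mouse ids 1 to 4 and 204, 221 and 275 CPM in NC mouse ids 1 to 3. All 4 Let7e values lay below the 3 NC values, and mouse ids 3 and 4 of Let7e were the lowest. The log2 fold change was -0.88 ± 0.30 (edgeR p = 0.0078). Single blastomeres overlapped more than the sums, from 43.2 to 373 CPM (median 140) in Let7e and from 71.6 to 600 CPM (median 209) in NC, and every cell held a read. In the other injected groups Hmga2 stood between these, at 162 ± 35.8 CPM (SD, n = 3) in Let7d and 181 ± 48.2 CPM (SD, n = 4) in mi699a-5p. The direct contrast gave -0.52 ± 0.28 for Let7e minus mi699a-5p (edgeR p = 0.0757) and -0.35 ± 0.30 for Let7e minus Let7d (edgeR p = 0.247), neither of which met the unadjusted threshold. Over the alternatives to the processing the log2 fold change of Let7e minus NC stayed between -1.11 and -0.71, with adjusted p-values of 0.475 or more.

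The list of let-7 targets, drawn up from general knowledge with earlier results of these data known, held 40 genes, of which 30 were measured. Of these 22 had a log2 fold change below 0 and 8 above, with a median of -0.28 against 0.02 over all genes. The median ranged from -0.43 (without Let7e mouse id 4) to -0.17 (without Let7e mouse id 2) over the alternatives. In the test 1 was lower at an unadjusted p under 0.05 (Hmga2, shown above with its 7 sites) and 0 were higher, a share of 3.33% beside 4.02% of all genes. The count below 0 describes a list chosen with results known and was given no test. It includes Igf2bp3 and Nr6a1, whose values round to 0. The p53 response list, described below, had the same median of -0.28.

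The RNA-binding proteins of the LIN28 loop did not separate the groups. Lin28a, whose product blocks let-7 maturation and which has 2 matches of the 8mer kind, had 35.9, 79.5, 70.5 and 61.4 CPM in Let7e and 61.2, 60.4 and 83.9 CPM in NC, values that overlapped. Its log2 fold change was -0.15 ± 0.37. Lin28b, with 5 matches, had 21.0, 11.2, 12.6 and 33.8 CPM in Let7e and 51.2, 29.5 and 11 CPM in NC, and one NC mouse id lay below all of Let7e. Its log2 fold change was -0.64 ± 0.52. Trim71, a ubiquitin ligase and RNA-binding protein of early embryos with 6 matches, 4 of them 8mers, had 236, 189, 155 and 347 CPM in Let7e and 342, 399 and 210 CPM in NC. The groups overlapped, and the log2 fold change was -0.45 ± 0.35.

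The 3 Igf2bp genes, which encode RNA-binding proteins of growth-related transcripts, all carry an 8mer match and none had an unadjusted p under 0.05. Igf2bp1 had 107, 122, 144 and 150 CPM in Let7e and 118, 161 and 62.5 CPM in NC, so that the Let7e values lay inside the NC range, with a log2 fold change of 0.20 ± 0.30. Igf2bp2 had 94.6, 214, 255 and 81.4 CPM in Let7e and 100, 109 and 143 CPM in NC, with Let7e mouse ids on both sides of NC and a log2 fold change of 0.46 ± 0.36. Igf2bp3 averaged 34.7 CPM in Let7e and 34.6 CPM in NC.

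Among the growth and cell cycle targets, Nras and Ccnd2 lay on the other side of 0. Nras, a small GTPase gene with 2 matches, had 166, 237, 265 and 160 CPM in Let7e and 142, 119 and 157 CPM in NC. Every Let7e value was above every NC value, by a narrow margin for mouse ids 1 and 4, and the log2 fold change was 0.57 ± 0.31 (edgeR p = 0.0785). Ccnd2, which encodes cyclin D2 and has 3 matches, was low throughout, at 6.25, 21.2, 41.2 and 9.97 CPM in Let7e and 1.48, 11.4 and 3.65 CPM in NC. These values overlapped, and the log2 fold change was 1.83 ± 0.99. No Ccnd2 read was found in 5 of 20 Let7e cells and 16 of 22 NC cells. At 1 common depth per cell the numbers without a read were 7 and 17. Ccnd1, which encodes cyclin D1 (0.27 ± 0.81), and Cdc25a, a phosphatase gene of cell cycle entry (-0.30 ± 0.36), overlapped between the groups. The values below 0 of larger size belonged to genes of low level or wide spread, E2f5 (-1.13 ± 0.94), E2f6 (-1.0 ± 0.86) and Cdk6 (-0.93 ± 0.71), all cell cycle genes that were singled out after their values were seen.

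**Figure D2:**
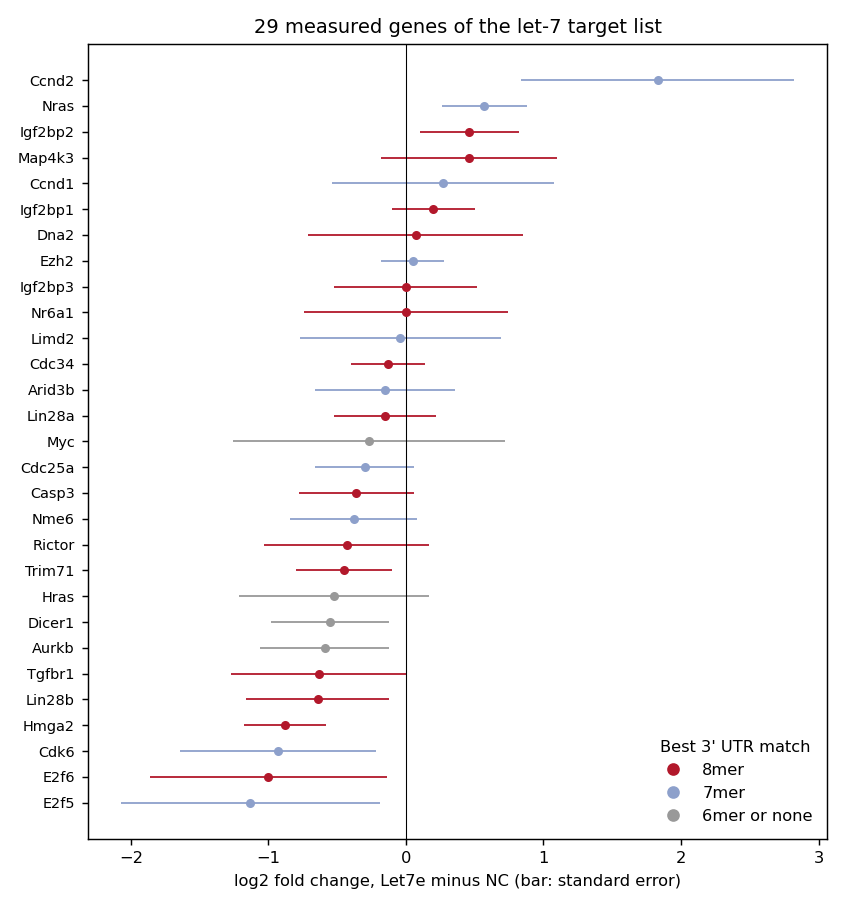
Log2 fold change (Let7e minus NC, horizontal axis) of 29 of the 30 measured genes of the let-7 target list with its standard error (bar), coloured by the best match in the 3′ UTR. Most genes shown lie left of 0, the bars of many cross 0, and Ccnd2 and Nras are the 2 uppermost.

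The sites were then described over the whole table. A 3′ UTR was found in GENCODE M21 on GRCm38 for 7576 of the 7886 genes. Sites were searched on the transcript strand as CTACCTCA (8mer), CTACCTC (7mer-m8), TACCTCA (7mer-A1) and TACCTC (6mer), each gene being put in the class of its best site, since the shorter strings lie inside the longer ones. The 8mer class held 311 genes (4.11% of genes with a 3′ UTR), 7mer-m8 547 (7.22%), 7mer-A1 504 (6.65%) and 6mer 738 (9.74%), and 5476 genes (72.3%) had none of these. A match is a string of letters and not a measured site.

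Class medians lay within 0.05 of genes without a match. The median log2 fold change was -0.03 in the 8mer class, 0.01 for 7mer-m8, 0.07 for 7mer-A1, -0.01 for 6mer and 0.02 for genes without a match. Below 0 lay 52.7%, 48.6%, 43.1%, 51.1% and 48.0% of these classes, in that order. The 7mer-A1 class thus lay farthest above 0 and the 8mer class farthest below. At an unadjusted p under 0.05 the 8mer class had 6 genes lower (1.93%) and 3 higher (0.965%). The 7mer-m8 class had 6 (1.1%) and 17 (3.11%), 7mer-A1 7 (1.39%) and 15 (2.98%), and genes without a match 95 (1.73%) and 119 (2.17%). Over all genes 1.69% were lower and 2.33% higher, so the share of lower 8mer genes was close to these. Set against genes without a match in each mouse id of Let7e, the shift of the 8mer class was -0.18, 0.00, 0.10 and -0.01 on the log2 CPM scale in mouse ids 1 to 4. Mouse id 1 was the lowest and mouse id 3 lay on the other side of 0, and the class difference of -0.05 is smaller than the SD of 0.12 over the Let7e mouse ids. It ranged from -0.09 to 0.00 over the alternatives. For the 7mer-A1 class the shift was 0.04, 0.08, 0.10 and 0.01 in the 4 Let7e mouse ids and -0.04, 0.02 and 0.01 in NC. All 4 Let7e values of this class were above 0, and its difference of 0.05 compares with an SD of 0.04, with a range of 0.04 to 0.11 over the alternatives.

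The number of matches gave a similar picture. Genes with 0, 1, 2, 3 and at least 4 matches of the 8mer or 7mer kinds numbered 6214, 1098, 206, 38 and 20, with median log2 fold changes of 0.02, 0.03, -0.01, -0.02 and -0.05. The share below 0 was 65.0% in the last class (13 of 20 genes), against 48.4% in genes with 0 matches. The median 3′ UTR also lengthened with the number of matches, from 958 bases at 0 to 5314 bases at 4 or more, and the part of length in the medians was examined only by a length window. Among genes whose 3′ UTR was 500 to 2000 bases long the 7mer-A1 median was 0.11 (167 genes) and that of genes without a match -0.01 (2652 genes), while the 105 genes of the 8mer class had a median that rounded to 0.00. Of the 20 genes with at least 4 matches only Hmga2 had an unadjusted p under 0.05. The abundant ones beside it and Trim71 had values close to 0. Ago2, which encodes the Argonaute protein that cleaves targets, had 469 ± 194 CPM (SD, n = 4) in Let7e and 461 ± 212 CPM (SD, n = 3) in NC. Zfp568, a zinc finger repressor gene, had 216 ± 18.2 and 217 ± 67.6 CPM, and Nemp1, a nuclear envelope protein gene, 137 ± 27.2 and 145 ± 6.13 CPM.

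**Figure D3:**
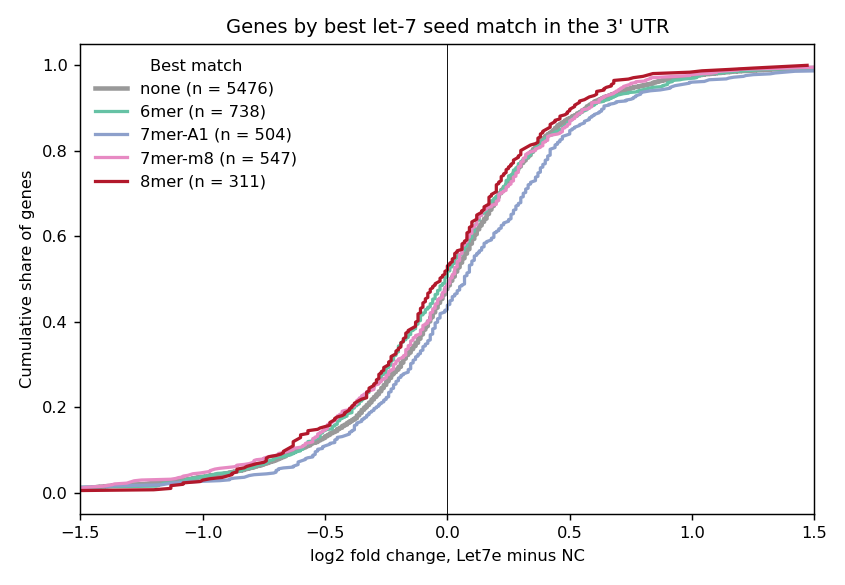
Cumulative share of genes (vertical axis) by log2 fold change of Let7e minus NC (horizontal axis, drawn from -1.5 to 1.5), 1 line for each class of best let-7 match in the 3′ UTR with its number of genes. The 8mer line (median -0.03) runs next to the line of genes without a match (0.02), and the 7mer-A1 line (0.07) lies to the right.

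The 9 genes of the 8mer class with an unadjusted p under 0.05 were Hmga2, Cgn, Ccnj, Dpp3, Emc7 and Ralgps2, all lower, and Ppt2, Cldn12 and Gprc5c, all higher. Hmga2 was named as a let-7 target whatever its p. Cgn was named because its p was under this threshold in a list of compaction, adhesion and polarity genes. The others were chosen here after their values were seen. The Cgn match lies away from the 3′ end of the gene, and whether the transcripts counted here carry it was not tested. Cgn encodes cingulin, a protein of tight junctions. Its level was 31.4, 50.7, 23.7 and 26.5 CPM in Let7e and 81.5, 57.8 and 77.7 CPM in NC, without overlap. The log2 fold change was -1.13 ± 0.40 (edgeR p = 0.0113), that of Let7e minus mi699a-5p -0.37 ± 0.37 and that of Let7e minus Let7d -1.17 ± 0.40. Dpp3, a dipeptidyl peptidase gene, was also separate between the groups (-0.92 ± 0.38), and Ccnj, a cyclin gene, overlapped (-1.20 ± 0.49).

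Genes of let-7 control and microRNA function came next, with 36 of 41 measured, 21 above and 15 below 0 and a median of 0.09. In the test 1 was lower at an unadjusted p under 0.05 (2.78% of the list, beside 4.02% of all genes) and 0 higher. This gene was Tnrc6a, whose protein GW182 links Argonaute to the deadenylation of target transcripts, and which has the single 7mer-A1 match printed above. Tnrc6a had 39.8, 12.1, 17.0 and 24.2 CPM in Let7e and 59.2, 55.8 and 68.5 CPM in NC. The 2 groups did not overlap, with mouse id 1 the highest of Let7e. The log2 fold change was -1.39 ± 0.37 (edgeR p = 0.00131). The Let7e mean of Tnrc6a, 23.3 CPM, was below the means of mi699a-5p (49.8 ± 10.2 CPM, SD, n = 4) and Let7d (44.3 ± 5.89 CPM, SD, n = 3). Let7e and Let7d overlapped, since Let7e mouse id 1 (39.8 CPM) lay above the lowest Let7d mouse id (37.8 CPM). The contrasts of Let7e with mi699a-5p and Let7d were -1.09 ± 0.34 (edgeR p = 0.00526) and -0.93 ± 0.37 (edgeR p = 0.0207). They reuse the Let7e samples by which the gene was chosen and are a description. In single cells Tnrc6a ranged from 1.1 to 82.1 CPM (median 16.3) in Let7e and from 11.4 to 155 CPM (median 53) in NC. Dicer1, the RNase of microRNA maturation and a let-7 target with a 6mer match, had 79.7, 37.4, 22.4 and 36.1 CPM in Let7e and 76.7, 69.1 and 46.7 CPM in NC. Let7e mouse id 1 lay above all NC values and the other 3 below, and the log2 fold change was -0.55 ± 0.43.

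Over all genes, the smallest p in the lower direction belonged to genes of unlike function, none with an 8mer match. Htr5b, which encodes a serotonin receptor, was a rare transcript of 5.72, 1.81, 2.12 and 4.94 CPM in Let7e and 31.2, 11.7 and 33.1 CPM in NC. The groups did not overlap, with a log2 fold change of -2.79 ± 0.64 (edgeR p = 0.000396). Of 20 Let7e cells 14 had no Htr5b read, against 4 of 22 NC cells, and the same numbers came out at 1 common depth per cell. In the other injected groups Htr5b averaged 16.9 ± 7.85 CPM (SD, n = 4) in mi699a-5p and 31.0 ± 17.8 CPM (SD, n = 3) in Let7d. The contrasts were -2.20 ± 0.61 (edgeR p = 0.00193) and -3.08 ± 0.65 (edgeR p = 0.00016), a description, since they reuse the Let7e samples by which Htr5b was chosen.

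Prdx6, a peroxiredoxin that reduces phospholipid hydroperoxides, was the abundant gene of this set. It had 298, 336, 438 and 317 CPM in Let7e and 734, 604 and 508 CPM in NC. All Let7e values were lower, with mouse id 3 the nearest to NC, and the log2 fold change was -0.83 ± 0.20 (edgeR p = 0.000579). Single cells ranged from 96.4 to 581 CPM (median 298) in Let7e and from 290 to 980 CPM (median 614) in NC. Against Let7d, which averaged 545 CPM, the contrast was -0.65 ± 0.20, whereas against mi699a-5p, which averaged 369 CPM, it was -0.09 ± 0.18. Prdx6 has a near-identical copy in the mouse genome, and how the authors' counting treated reads of both is not given in the sources used here.

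Cers6 encodes a ceramide synthase that makes ceramides with long acyl chains. Its level was 29.6, 11.8, 9.63 and 5.53 CPM in Let7e and 58.7, 65.6 and 140 CPM in NC. The groups did not overlap and NC mouse id 3 stood highest, with a log2 fold change of -2.63 ± 0.65 (edgeR p = 0.000763). In cells it ranged from 0 to 115 CPM in Let7e and from 0 to 382 CPM in NC, and 6 of 20 and 3 of 22 cells had no read. The other groups lay between, at 26.1 CPM in mi699a-5p and 46.1 CPM in Let7d. Of 23 measured genes of ceramide and sphingolipid synthesis, 11 were above and 12 below 0 (median -0.01). In the test 2 were lower at an unadjusted p under 0.05, Cers6 and Ugcg, and 1 was higher, Kdsr. They made up 13.0% of the list, beside 4.02% of all genes. Ugcg, which makes glucosylceramide and has 1 match of the 7mer-m8 kind, had a log2 fold change of -0.54 ± 0.25. Kdsr, the reductase of an early step of sphingolipid synthesis, had 1.03 ± 0.41 with no overlap between groups. The members thus pointed in both directions.

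**Figure D4:**
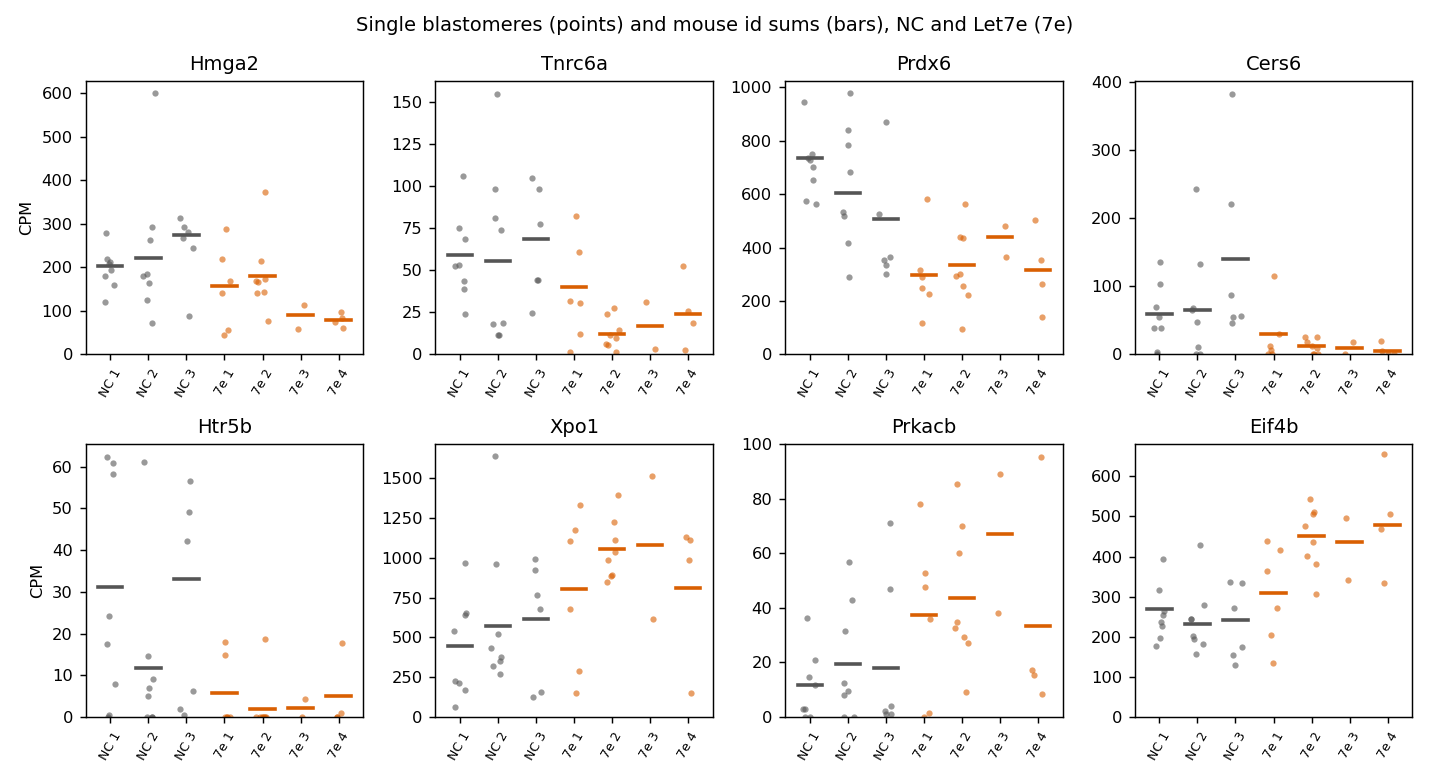
CPM of single blastomeres (points) and of the summed reads of each mouse id (horizontal bars) for 8 genes, NC in grey and Let7e (7e) in orange, with linear axes from 0. The genes were picked from those with an unadjusted p under 0.05, which favours bars that lie apart (5.62% of all genes had such bars). The bars of the 2 groups do not overlap in these 8 genes. Single cells do overlap, as in Hmga2 with 43.2 to 373 CPM in Let7e and 71.6 to 600 CPM in NC.

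The other lower genes with the smallest p were mostly of low to moderate level. Cd151, a tetraspanin gene, had -2.10 ± 0.61, and its groups overlapped because NC mouse id 2 stood at 6.60 CPM, under the 6.70 CPM of Let7e mouse id 4. Txndc11, a thioredoxin domain gene, had 4.78, 11.5, 8.65 and 5.19 CPM in Let7e and 19.7, 29.7 and 19.4 CPM in NC (-1.61 ± 0.49), with 22.3 CPM in mi699a-5p and 19.9 CPM in Let7d. Mfge8, which encodes the secreted protein lactadherin, had 50.3, 35, 58.0 and 77.0 CPM in Let7e and 184, 111 and 86.0 CPM in NC (-1.21 ± 0.39), with 108 CPM in mi699a-5p and 121 CPM in Let7d. Ino80c, a subunit gene of the INO80 chromatin remodeller, had -1.01 ± 0.30, and Msmo1, a sterol oxidase gene of cholesterol synthesis, -1.16 ± 0.38. For Cd151, Txndc11, Mfge8, Ino80c and Msmo1 the Let7e mean was the lowest of the 4 groups, as it was for Tent5c and Alkbh4 below. These genes were chosen by the same Let7e samples, so this is a description. Tent5c, a poly(A) polymerase gene, had 4.96, 3.63, 0 and 0.754 CPM in Let7e and 6.95, 11.5 and 54.1 CPM in NC, where mouse id 3 sets the NC mean. Alkbh4, a demethylase gene with 2 matches of the 7mer-m8 kind, had 12.9, 10.7, 6.37 and 8.29 CPM in Let7e and 29.1, 18.9 and 54.0 CPM in NC (-1.82 ± 0.59). Its other groups stood near Let7e, at 14.0 CPM in mi699a-5p and 11 CPM in Let7d. The gene ENSMUSG00000118642.1, which has no entry in the annotation used, was lower in Let7e than in NC (86.2 ± 6.29 against 197 ± 69.3 CPM) and lower still in the other 2 groups.

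In the higher direction the smallest p belonged to Prkacb, a catalytic subunit gene of protein kinase A. It had 37.3, 43.8, 67.1 and 33.5 CPM in Let7e and 11.8, 19.5 and 17.9 CPM in NC. All 4 values were above NC, and the log2 fold change was 1.47 ± 0.37 (edgeR p = 0.000828). Prkacb also averaged 36.0 ± 7.35 CPM (SD, n = 4) in mi699a-5p and 41.1 ± 6.14 CPM (SD, n = 3) in Let7d, so that NC was the group that stood apart. The contrasts of Let7e with these groups were 0.34 ± 0.33 and 0.14 ± 0.35. It was the 1 gene with an unadjusted p under 0.05 among 12 measured of protein kinase A signalling (8.33%, beside 4.02% of all genes). That list had 5 above and 7 below 0.

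Xpo1, the exportin that carries proteins and some RNAs out of the nucleus, had 806, 1055, 1077 and 811 CPM in Let7e and 445, 574 and 616 CPM in NC. The groups were separate, with a log2 fold change of 0.78 ± 0.21 (edgeR p = 0.0016). The other groups again stood with Let7e, at 1046 ± 168 CPM (SD, n = 4) in mi699a-5p and 986 ± 223 CPM (SD, n = 3) in Let7d. All 31 listed genes of nuclear export and import were measured, 22 above and 9 below 0, with a median of 0.18. In the test 3 were higher at an unadjusted p under 0.05 (9.68%, beside 2.33% of all genes) and 0 lower. Beside Xpo1 these were the import receptor gene Tnpo2 (0.64 ± 0.27) and Cse1l, the export factor of importin alpha (0.49 ± 0.22). The list was chosen with earlier results of these data known, so its share is a description and was given no test. Tnpo2 was also higher than in mi699a-5p, by 0.89 ± 0.25, whereas Cse1l gave -0.18 ± 0.20 there.

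Eif4b, an initiation factor that stimulates the helicase at the cap, differed from this pattern. It had 310, 451, 437 and 478 CPM in Let7e and 269, 233 and 243 CPM in NC, without overlap, and a log2 fold change of 0.76 ± 0.21 (edgeR p = 0.00176). In mi699a-5p it averaged 292 ± 47.3 CPM (SD, n = 4) and in Let7d 313 ± 35.9 CPM (SD, n = 3), below the Let7e mean of 419 CPM. The contrasts were 0.52 ± 0.19 (edgeR p = 0.0128) and 0.42 ± 0.20 (edgeR p = 0.0535), again with the Let7e samples by which Eif4b was chosen. All 42 listed genes of translation initiation were measured, 25 above and 17 below 0 (median 0.06). In the test 4 were higher at an unadjusted p under 0.05 (9.52%, beside 2.33% of all genes) and 0 lower. Beside Eif4b these were Eif4g2, an initiation factor of cap-independent translation (0.77 ± 0.25), the Eif3 subunit gene Eif3a (0.56 ± 0.23) and Eif1, a start codon selection factor (0.49 ± 0.22). This list too was chosen with earlier results known, and its share was given no test. Eif4g2 holds 1 match of the 7mer-m8 kind and was nonetheless on the higher side, with 1099, 2065, 1467 and 1338 CPM in Let7e and 798, 687 and 1141 CPM in NC. The highest NC and the lowest Let7e value overlapped.

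Further higher genes with small p fell in several functions. Mybbp1a, a nucleolar protein gene, had 651, 1089, 970 and 815 CPM in Let7e and 441, 512 and 474 CPM in NC (0.89 ± 0.25), and averaged 750 CPM in mi699a-5p and 740 CPM in Let7d. Gfm1, the mitochondrial translation elongation factor, had 132, 166, 140 and 71.3 CPM in Let7e and 38.9, 60.1 and 77.4 CPM in NC, which overlapped by mouse id 4 (1.12 ± 0.31). Pprc1, a coactivator gene related to PGC-1 alpha, had 0.93 ± 0.26. Atxn2l, which encodes a stress granule protein, had 61.8, 82.7, 71.2 and 76.3 CPM in Let7e and 30.7, 18.9 and 40.8 CPM in NC (1.28 ± 0.35). Its Let7e mean of 73.0 CPM exceeded the means of mi699a-5p (40.8 CPM) and Let7d (36.2 CPM), with contrasts of 0.84 ± 0.32 and 1.01 ± 0.35. Kdm4c, a histone demethylase gene, had 1.25 ± 0.36, Tmem201, a nuclear membrane protein gene, 0.90 ± 0.26, and Champ1, a kinetochore-related zinc finger gene, 0.90 ± 0.27. Omt2b, an oocyte transcript with a close copy in the genome, had 51.9, 17.3, 39.0 and 24.8 CPM in Let7e and 12.6, 12.7 and 6.32 CPM in NC (1.66 ± 0.50). Mbnl1, a splicing regulator gene, had the widest spread, at 31.6, 10.5, 93.6 and 187 CPM in Let7e and 24.8, 5.33 and 3.56 CPM in NC, with overlap and a log2 fold change of 2.84 ± 0.87.

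The 24 genes with the smallest p were set beside the 2 other injected groups, in contrasts that share the Let7e samples with the contrast that chose the genes. Counts in them can be raised by the choice itself and are a description, for which the share over all genes is no reference. Of the 12 higher genes 2 had an unadjusted p under 0.05 in Let7e minus mi699a-5p, Eif4b and Atxn2l (7.06% of all genes did). In Let7e minus Let7d 3 did, Atxn2l, Champ1 and Mbnl1 (5.39% of all genes did). Of the 12 lower genes 7 and 10 did. Of the lower genes ENSMUSG00000118642.1 had the opposite sign in both contrasts, at 0.82 and 1.46. By edgeR 0 genes passed the adjustment in either contrast. DESeq2 gave adjusted p-values under 0.05 among the named genes for Trim61 against mi699a-5p (0.0107) and for Htr5b (0.00383) and Trim61 (0.0163) against Let7d.

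**Figure D5:**
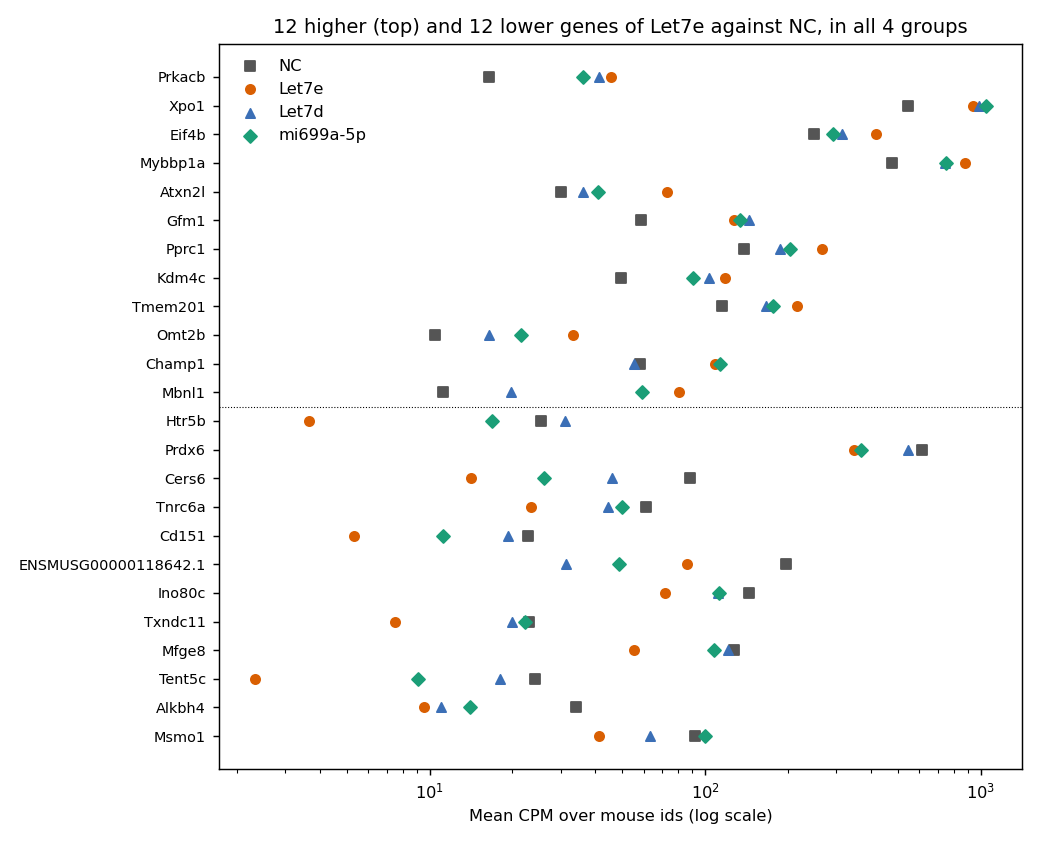
Mean CPM over mouse ids (log axis) in NC, Let7e, Let7d and mi699a-5p for the 12 higher genes (above the dotted line) and the 12 lower genes (below) of Let7e against NC. For Prkacb, Xpo1 and Gfm1 the NC square stands apart from the other 3 groups, and for Htr5b, Txndc11 and Mfge8 the Let7e circle does.

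Genes of mitochondria and energy metabolism, the theme of the study's title, showed small differences in both directions. Of 71 nuclear genes of oxidative phosphorylation 39 were above and 32 below 0 (median 0.06), and of 7 mitochondrially encoded ones 6 were above (median 0.11), with 0 at an unadjusted p under 0.05 in both lists. Mitochondrial ribosomal protein genes had 54 of 76 above 0 (median 0.10), cytosolic ones 57 of 85 (median 0.07), again with 0 under this p. Of 27 genes of pyruvate dehydrogenase and the TCA cycle 1 was lower (3.70%, beside 4.02% of all genes), Idh3a, a subunit of isocitrate dehydrogenase. Idh3a had 18.2, 22.3, 41.2 and 16.2 CPM in Let7e and 66.3, 56.9 and 38.5 CPM in NC, which overlapped by Let7e mouse id 3 (-1.15 ± 0.41). Of 13 glycolytic genes 1 was higher (7.69%, beside 4.02% of all genes), Aldoa, the aldolase. It had 132, 231, 158 and 170 CPM against 62.4, 80.2 and 125 CPM in NC, without overlap (0.95 ± 0.33). Among 38 genes of mitochondrial dynamics, import and turnover 1 was higher, the matrix protease gene Clpp (0.71 ± 0.31), and 1 lower, the prohibitin gene Phb (-0.56 ± 0.26). These made up 5.26% of that list. Fatty acid oxidation had 6 above and 13 below 0 of 19 (median -0.10) and 0 under the threshold. In insulin, IGF and mTOR signalling 1 of 29 was higher (3.45%), the AMP kinase subunit gene Prkag1 (0.87 ± 0.34). Of 21 antioxidant enzyme genes Prdx6 alone had an unadjusted p under 0.05 (4.76%), and 13 lay below 0.

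Lineage and junction genes gave some of the larger single values. Gata3, a transcription factor of the trophectoderm (the outer lineage that forms the placenta), had 19.5, 15.4, 0 and 2.68 CPM in Let7e and 62.7, 69.7 and 9.40 CPM in NC. NC mouse id 3 lay among the Let7e values, and the log2 fold change was -2.31 ± 0.89 (edgeR p = 0.0182). In Let7d and mi699a-5p Gata3 averaged 77.8 and 44.0 CPM. Cldn4, a tight junction claudin gene, had 81.1, 223, 277 and 117 CPM in Let7e and 494, 273 and 482 CPM in NC, with NC mouse id 2 just under Let7e mouse id 3 (-1.26 ± 0.52). These were the 2 of 13 measured trophectoderm genes with an unadjusted p under 0.05 (15.4%, beside 4.02% of all genes). The list as such had 6 above and 7 below 0 (median -0.13). Of 31 genes of compaction, adhesion and polarity Cgn alone was under this p (3.23%), and 19 lay below 0. Among 23 genes of pluripotency and the inner cell mass 2 were higher and 0 lower (8.70%, beside 4.02% of all genes in either direction). Klf2, a Krüppel-like factor of naive pluripotency, had 46.4, 38.1, 63.7 and 47.8 CPM in Let7e and 19.9, 23.2 and 22.5 CPM in NC (1.16 ± 0.40), and Dppa2, a regulator of early genes, 497, 626, 529 and 605 CPM against 361, 385 and 396 CPM (0.57 ± 0.20). Neither overlapped. Dppa2 stood at 571 CPM in Let7d and 393 CPM in mi699a-5p, and Klf2 at 20.6 and 42.5 CPM.

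Transcripts inherited from the oocyte had 9 above and 7 below 0 of 16 measured. Of these 16 genes 1 was higher at an unadjusted p under 0.05, Omt2b, and 1 was lower, Trim61. Of all genes 4.02% had such a p in either direction. Trim61, an oocyte-enriched gene of a family with close copies, had 3.95, 0.843, 0 and 1.59 CPM in Let7e and 11.9, 13.2 and 4.54 CPM in NC (-2.60 ± 0.90). The 7 measured genes of the 2-cell stage had 5 above 0 (median 0.47) and 0 under the threshold. Of 43 S phase genes 3 were higher, the replication factor genes Mcm10 (0.96 ± 0.30) and Mcm2 (0.64 ± 0.21) and the polymerase delta subunit Pold1 (1.01 ± 0.40). The histone mRNA-binding protein gene Slbp was the 1 lower (-0.62 ± 0.24). Together they made up 9.30% of the list, beside 4.02% of all genes. Mcm2 had 251, 304, 250 and 281 CPM in Let7e and 159, 176 and 188 CPM in NC, without overlap, and averaged 254 CPM in mi699a-5p and 253 CPM in Let7d. Of 35 G2/M genes 2 were higher (5.71%, beside 4.02% of all genes), the spindle checkpoint kinase gene Bub1b (1.03 ± 0.35) and the midzone protein gene Prc1 (0.71 ± 0.29). The median of the list was 0.01.

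In stress pathways the p53 response list had 3 of 24 measured genes above and 21 below 0 (median -0.28). The median of the p53 list was -0.10 without NC mouse id 1, -0.16 without Let7e mouse id 2 and -0.43 with the mouse id numbers as a block, the extremes over the alternatives being -0.43 and -0.10. The 1 gene with an unadjusted p under 0.05 (4.17%, beside 4.02% of all genes) was Sfn, which encodes the 14-3-3 sigma protein. Sfn was on the other side, at 427, 741, 592 and 386 CPM in Let7e and 262, 321 and 448 CPM in NC (0.64 ± 0.28, with overlap). The 21 measured genes of the integrated stress and heat shock response (12 above 0) and the 6 of the interferon and double-stranded RNA response (2 above 0) had 0 under this p. The 6 interferon genes were Mavs, Adar, Irf9, Stat2, Ifitm1 and Bst2, and together they came to 84.1 to 115 CPM in Let7e and 92.4 to 129 CPM in NC.

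Single blastomeres spread more widely than the sums of mouse ids. A sum pools 2 to 8 cells, which by itself narrows its spread, and cells and sums are scaled differently. The 2 kinds of SD are therefore not like measures. Over 7186 genes with a mean of at least 10 CPM in the sums, the median SD of log2(CPM + 1) was 1.41 between cells of a mouse id and 0.50 between mouse ids of a group. A read was found in all 42 cells for 3229 of these genes (44.9%). Within-id SDs were larger in Let7e than in NC for 51.6% of genes. For each mouse id taken alone the median SD between its cells was 1.24, 1.21, 0.59 and 0.84 in Let7e and 1.03, 1.33 and 1.0 in NC, with the low value of 0.59 resting on 2 cells. The group means differed by -0.15 (two-sided exact permutation p = 0.571, where 4 against 3 cannot give less than 0.0571), which is less than the SD of 0.31 over the Let7e mouse ids. Of the named translation initiation genes Eif3a had an SD between cells of 0.37, Eif4b and Eif1 0.46 and Eif4g2 0.81, whereas Cers6 (2.4), Mbnl1 (2.31) and Htr5b (2.1) varied more from cell to cell. Hmga2 had 0.72 between cells and 0.47 between mouse ids.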

How the data were processed

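The deposited counts are raw reads per gene and cell, as whole numbers; the aligner STAR and the build GRCm38.p6 stand in the submitters' processing notes, while the counting tool, strand setting and CPM filter threshold are not given in the sources used here. Without a stated strand, reads of overlapping or antisense genes cannot be told apart. The authors' RPKM values were not used. Of 92 labelled cells 10 had no column and were not analysed here; 22 Let7e and 23 NC cells are labelled. Unmapped columns numbered 0. Of 7886 gene identifiers 7884 matched GENCODE M21.

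Counts were summed per mouse id and tested with edgeR 4.0.16 (R 4.3.3; TMM, filterByExpr, which removed 0 genes, quasi-likelihood, two-sided) fitted jointly over the 4 groups (residual degrees of freedom 10, common dispersion 0.249), Benjamini-Hochberg adjusted at 0.05. CPM of mouse ids is scaled by TMM factors and CPM of cells by their totals. Let-7 strings were searched in all annotated 3′ UTRs (18041 transcripts), and each gene took the transcript with its best match. DESeq2 1.42.0, limma 3.58.1 (voom), other scalings, filters, thinning to 1138550 reads per cell, covariates and omitted mouse ids were alternatives. Scripts were tested on simulated data (Python 3.11.15, scipy 1.17.1). With the common dispersion given to every gene, 0 of 200 genes changed 2-fold in Let7e were called, and 85 of 200 (42.5%) changed 4-fold. Recovery under the unlike spreads of the real genes was not measured.

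Genes were named by rule: with a mean of at least 10 CPM, the 12 of smallest p in each direction; up to 4 members of each list with an unadjusted p under 0.05; set let-7 targets where measured, of which 1 is not reported here; and the 5 most abundant genes with at least 4 matches. The comparison, members and lists were chosen with earlier results of these data known.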

Additional observations from a re-analysis of the deposited data

Results flagged for a closer look

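In the 4 Let7e mouse ids 70 measures were checked for a value far from the others, and 2 exceeded Dixon's critical value for 4 samples; chance alone gives about 1 in 20. Mcm10, a replication initiation gene, had 693 CPM in Let7e mouse id 3 (2 cells) against 276, 310 and 283 CPM in the others, a gap of 0.873 of the range on the log2 scale. Zfp568, a zinc finger gene with 4 let-7 matches, had 189 CPM in Let7e mouse id 2 against 224, 224 and 227 CPM, a gap of 0.939 of the range.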

How the results depend on the processing

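Under 20 alternatives 0 genes were called in Let7e against NC, with a lowest adjusted p of 0.093 (DESeq2). The alternatives are not all distinct. The fit without a filter repeats the main fit, since filterByExpr removed 0 genes. The fit without mouse ids of fewer than 3 cells repeats that without Let7e replicate 3. The counts of higher and lower genes at an unadjusted p under 0.05 stayed within 1.5 times 184 and 133, from 127 to 261 and from 93 to 195. The balance shifted with upper-quartile factors (151 and 157) and limma-voom (192 and 195), without Let7e replicate 2 (163 and 191), and without Let7e replicate 1 it was 261 and 194. Same-numbered mouse ids of Let7e and NC gave correlations of -0.03, -0.16 and 0.09, and differently numbered ones reached 0.23. Over so few mouse ids this cannot decide whether the numbers pair the samples, and the labels do not say. With the replicate block, which leaves 2 residual degrees of freedom, 127 were higher and 115 lower, and 0 were called. With omitted mouse ids the signs of small log2 fold changes turned in Lin28a (-0.29 to 0.04), Igf2bp1 (-0.09 to 0.54), Igf2bp3 (-0.67 to 0.28), Ccnd1 (-0.34 to 1.47), Ago2 (-0.22 to 0.46), Zfp568 (-0.19 to 0.26) and Nemp1 (-0.18 to 0.04). Igf2bp3 was 0.01 with DESeq2, with RLE factors and with only the 2 groups in the fit, and 0.04 with thinned cells. Ago2 was -0.01 with upper-quartile factors and -0.22 without mouse ids of fewer than 3 cells, which is Let7e replicate 3. Zfp568 was 0.02 with limma-voom and 0.00 with the replicate block. In all, 25 of 1280 values of named genes under alternatives changed sign, with the repeated settings counted. DESeq2 called 1 named gene against mi699a-5p and 2 against Let7d. In the window of 3′ UTR length the class medians minus genes without a match were 0.04 for 7mer-m8 and 0.11 for 7mer-A1, and with omitted mouse ids 7mer-m8 ranged from -0.03 to 0.02.

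The alternatives for lists and the omission of mouse ids for library measures were chosen after seeing the data. Fatty acid oxidation was -0.32 with limma-voom and -0.27 without mouse ids of fewer than 3 cells. Insulin, IGF and mTOR signalling was 0.03 with thinned cells, 0.05 with limma-voom and with the replicate block, and -0.03 without mouse ids of fewer than 3 cells. Trophectoderm was 0.05 with limma-voom and 0.07 with the block, maternal transcripts -0.65 with the block, and G2/M -0.03 with upper-quartile factors, 0.05 with limma-voom and 0.06 without mouse ids of fewer than 3 cells. With omitted mouse ids the list medians ranged from -0.27 to -0.03 (fatty acid oxidation), -0.10 to 0.12 (insulin, IGF and mTOR signalling), -0.21 to 0.07 (protein kinase A signalling), -0.27 to 0.05 (trophectoderm), -0.02 to 0.10 (G2/M) and 0.02 to 0.11 (S phase). The Let7e minus NC difference then ranged from -96.7 to 29.3 in genes detected per cell and from -0.326 to 0.684 percentage points in the mitochondrially encoded share. The cause of these shifts was not tested. Genes under 10 CPM had a median standard error of 1.0, in which counting error and the spread between cells were not separated, and Let7e replicate 3 rests on 2 cells.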
